A study of Tupaia belangeri with 8 samples.

Results

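The miRNAs described are tch-miR-34a-5p, tch-miR-34c-5p, tch-miR-194-5p and tch-miR-192-5p, 4 of the 384 miRNAs in the deposited table. They were chosen by name, as members of the miR-34 family and of the cluster of miR-192 and miR-194, with no rule on their values. Earlier results of these data were known when they were chosen. Small RNA was sequenced in primary neurons isolated from the brain of neonatal tree shrews (Tupaia belangeri), described by the submitters as having dopaminergic activity, in 4 METH and 4 PBS libraries. METH wells held 995 µl of neuronal medium and 5 µl of methamphetamine, a psychostimulant that releases dopamine, from a stock labelled 100 mmol. PBS wells held that medium alone, and cells of both groups had been rinsed with PBS beforehand. Cells were collected at 24 h, and the medium contained 15% fetal bovine serum in both groups. Whether libraries of 1 group stem from different animals or different cultures is not labelled, and the spread that the p-values rest on may therefore be technical.

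The mature miR-34 miRNAs repress cell cycle and survival genes such as CDK6, CCND1, MET and BCL2, and are known for their rise on DNA damage. miR-34b and miR-34c come from a shared gene, apart from that of miR-34a. miR-34a is the most widely expressed of the family and is made in brain, while miR-34b and miR-34c are best known from ciliated epithelium and testis. miR-192 and miR-194 come from shared primary transcripts in human cells and are abundant in liver, gut and kidney. The title of the series names apoptosis and cell cycle abnormalities under METH, processes in which these miRNAs are placed.

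In the RefSeq annotation of the Chinese tree shrew (assembly TupChi_1.0), 4 of the 4 miRNAs matched a gene by name. MIR192 and MIR194 are listed next to each other, between a long non-coding RNA gene and the autophagy gene ATG2A. MIR34A is listed in 2 neighbouring copies, MIR34A-1 and MIR34A-2, and the table holds 1 row for their shared name, so reads from the copies cannot be told apart. MIR34C lies between HOATZ and LAYN. No source used here names the build behind the deposited counts, and the annotation served for names and neighbours only.

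Total counts ran between 339243 and 6702946 in the METH libraries and between 388419 and 7334789 in the PBS libraries, a range of 21.6-fold. In each group the library numbered 4 was the deepest. METH 3, PBS 1 and PBS 3 stood apart on the first principal component, which held 65.7% of the variance, at −18.64, −14.64 and −13.03, while the other 5 libraries lay between 6.34 and 11.94. These were also the libraries with the lowest total counts, 339243 in METH 3, 526031 in PBS 1 and 388419 in PBS 3. The next lowest was METH 1 at 642982. The part of depth in this division was not tested. Of 5 neuron markers, 4 matched a row (miR-9, miR-128, miR-129 and miR-218), while miR-124 matched none. The summed level of the 4 was 24133 to 80728 normalised CPM in METH libraries and 10450 to 62074 in PBS libraries. Most of this sum was miR-9-5p, 64267 of 80728 normalised CPM in METH 3 and 6507 of 10450 in PBS 3. The markers did not all follow the sum. In METH 3, with the highest sum, miR-218-5p was at 495 and miR-129-5p at 13466. In METH 4, with the lowest METH sum, they were at 1979 and 182. Markers of mesenchyme (3 of 6 matched) summed to 12126 to 74974 normalised CPM in METH and 11319 to 93741 in PBS libraries, and those of leukocytes (2 of 3) to 493 to 4775 in METH and 540 to 2600.2 in PBS. The leukocyte sum was nearly all miR-155-5p. The other matched leukocyte marker, miR-142, had 36 reads in METH 1, 8 in PBS 4 and fewer in the remaining libraries, and miR-223 matched no row. Normalised CPM are CPM whose library size was adjusted by TMM, with no length term. In bulk libraries, fewer cells of a type and less RNA per cell cannot be told apart.

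The 4 miRNAs were minor species. Together they held 11687 reads, 0.0672% of all counts, and between 0.0274% and 0.0967% of each library. miR-34a-5p averaged 388 normalised CPM over the 8 libraries and stood at rank 61 of the 159 miRNAs with a known name. miR-34c-5p averaged 120.2 normalised CPM, at rank 83. miR-194-5p averaged 20.7 and miR-192-5p 16.9 normalised CPM, at ranks 111 and 116. The libraries numbered 4 supplied 88.7% of the miR-34a-5p reads, 79.1% of those of miR-34c-5p, 88.3% of those of miR-194-5p and 86.1% of those of miR-192-5p.

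The order of the levels was miR-34a-5p, miR-34c-5p, miR-194-5p and miR-192-5p. miR-34a-5p exceeded miR-34c-5p in 8 of 8 libraries, by 3.58-fold on average (mean log2 ratio of counts 1.84 ± 1.12, SD, n = 8; exact two-sided sign-flip permutation p = 0.00781, adjusted over 3 neighbour pairs 0.0117). miR-34c-5p exceeded miR-194-5p in 8 of 8 libraries, by 5.07-fold (mean log2 ratio 2.34 ± 1.24, n = 8; exact permutation p = 0.00781, adjusted 0.0117). This is the smallest p that 8 libraries can give in this test. miR-194-5p was above miR-192-5p in 6 libraries and equal to it in 1, by 1.37-fold, and this pair did not differ beyond the spread (mean log2 ratio 0.45 ± 0.74, n = 8; exact permutation p = 0.141, adjusted 0.141). Without PBS 2 its mean log2 ratio was 0.63, again with miR-194-5p higher (exact permutation p = 0.0312, unadjusted, n = 7). Leaving out any other single library gave an exact permutation p between 0.141 and 0.281. Efficiency of adapter ligation differs between small RNAs, so a level ratio between miRNAs need not be a ratio of molecules.

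miR-34a-5p, a repressor of cell cycle genes, differed less between METH and PBS than between the libraries of a group. It had 212, 369, 274 and 992 normalised CPM in METH 1 to 4, from 101, 254, 104 and 5265 reads. It had 327, 319.9, 183 and 427 normalised CPM in PBS 1 to 4, from 254, 162, 131 and 2646 reads. METH 4 was the highest of the 8 libraries and the other 3 METH libraries lay within the PBS range, so the groups overlapped. The means were 462 ± 359 normalised CPM in METH and 314 ± 100 in PBS (SD, n = 4 each), and 2 of 4 METH libraries lay above the PBS mean. The log2 fold change was 0.56 (SE 0.63, 95% interval −0.82 to 1.93, edgeR quasi-likelihood test, adjusted p = 0.999), so the interval held anything between a fold of 0.566 and a fold of 3.82. Without METH 4 the log2 fold change was −0.10.

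miR-34c-5p, which carries the same seed as miR-34a and so can pair with the same target sites, did not differ between the groups beyond the spread. It had 134, 105, 60.6 and 173 normalised CPM in METH 1 to 4, from 64, 72, 23 and 919 reads. It had 196, 179.7, 11.2 and 102 normalised CPM in PBS 1 to 4, from 152, 91, 8 and 632 reads. All METH values fell within the PBS range, which was set by a high PBS 1 and a low PBS 3. The means were 118 ± 47.5 normalised CPM in METH and 122 ± 84.6 in PBS (n = 4 each), and edgeR put METH over PBS at −0.04 on the log2 scale (SE 0.83; interval at 95%, −1.86 to 1.77; adjusted p = 0.999). Leaving out PBS 3 gave −0.45. Leaving out PBS 1, PBS 2 or METH 3 turned the sign, to 0.25, 0.23 and 0.12 in that order.

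miR-194-5p did not differ between the groups beyond the spread. It had 12.6, 27.6, 10.5 and 37.7 normalised CPM in METH 1 to 4, from 6, 19, 4 and 200 reads. It had 9.03, 23.7, 9.79 and 34.7 normalised CPM in PBS 1 to 4, from 7, 12, 7 and 215 reads. METH 3, PBS 1 and PBS 3, the libraries that stood apart, were the lowest of the 8, and the libraries numbered 4 were the highest of each group. The means were 22.1 ± 12.9 normalised CPM in METH and 19.3 ± 12.3 in PBS (n = 4 each), and edgeR put METH over PBS at 0.21 on the log2 scale (SE 0.67; interval at 95%, −1.25 to 1.67; adjusted p = 0.999). Leaving out PBS 4 gave 0.69. The sign turned on leaving out METH 2 (−0.01), METH 4 (−0.16), PBS 1 (−0.07) or PBS 3 (−0.08).

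miR-192-5p, the neighbour of miR-194, had too few reads to pass the filter on low counts. Its fold change over all libraries comes from the same model with no filter, while its normalised CPM use the TMM factors of the filtered fit. miR-192-5p had 10.5, 13.1, 7.90 and 18.3 normalised CPM in METH 1 to 4, from 5, 9, 3 and 97 reads. It had 2.58, 41.5, 9.79 and 31.4 normalised CPM in PBS 1 to 4, from 2, 21, 7 and 195 reads. PBS 2 and PBS 4 were above every METH library, PBS 1 was below every METH library, and PBS 3 lay among them. The means were 12.4 ± 4.43 normalised CPM in METH and 21.3 ± 18.2 in PBS (n = 4 each), and 4 of 4 METH libraries lay below the PBS mean. The log2 fold change was −0.84 (SE 0.92, 95% interval −2.78 to 1.09, edgeR adjusted p = 0.999). It was −0.45 without PBS 2 and −0.41 without PBS 4, both with no filter. Without PBS 1, where miR-192-5p passed the filter, it was −1.14, the lowest value when 1 library was left out.

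**Figure D1:**
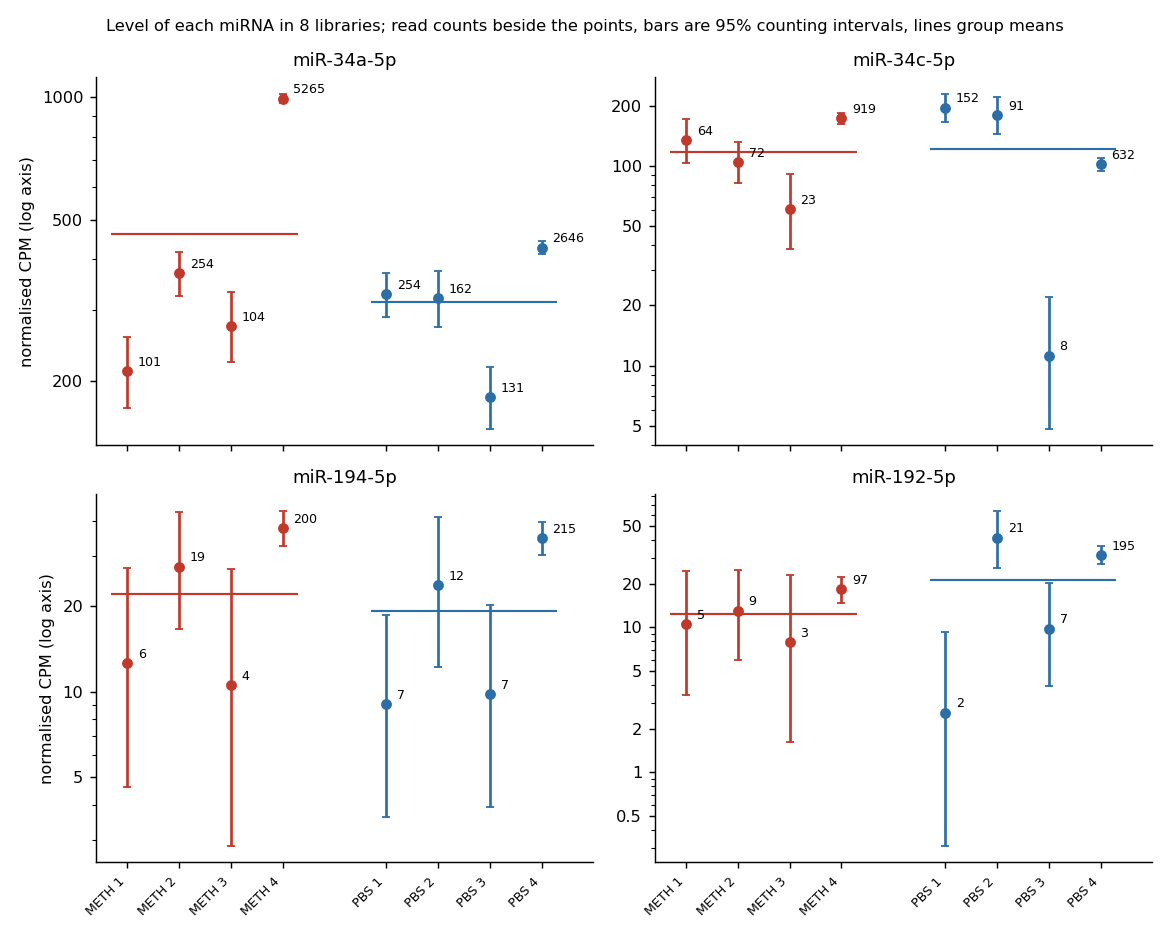
Normalised CPM (log axis) of the 4 miRNAs in METH 1 to 4 and PBS 1 to 4, with the read count beside each point, 95% Poisson intervals for counting error and a line at each group's mean. For miR-34a-5p, METH 4 at 992 normalised CPM lies above the other 7 libraries (183 to 427), and for miR-192-5p the spread within PBS (2.58 to 41.5) is wider than that within METH (7.90 to 18.3).

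None of the 4 miRNAs was called, against a background of 0% (0 of 166 miRNAs tested, edgeR adjusted p under 0.05), with 0 at an unadjusted p under 0.05 in edgeR and 2 in DESeq2 over all 384. The METH and PBS values overlapped for each of the 4, and the share of tested miRNAs whose groups did not overlap was likewise 0%. Of the 3 members that passed the filter, 2 had a log2 fold change above 0 with TMM scaling, where 75.9% of all 166 did and the median was 0.21.

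**Figure D2:**
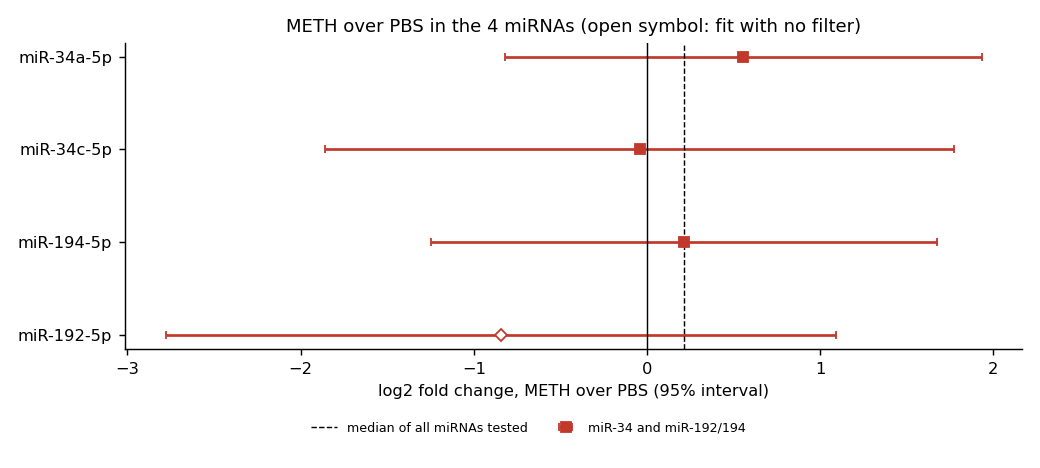
Log2 fold change (METH over PBS) with its 95% interval for miR-34a-5p, miR-34c-5p, miR-194-5p and miR-192-5p (the last from the fit with no filter). All 4 intervals include 0, and the dashed line marks the median of all 166 miRNAs tested, at 0.21.

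**Figure D3:**
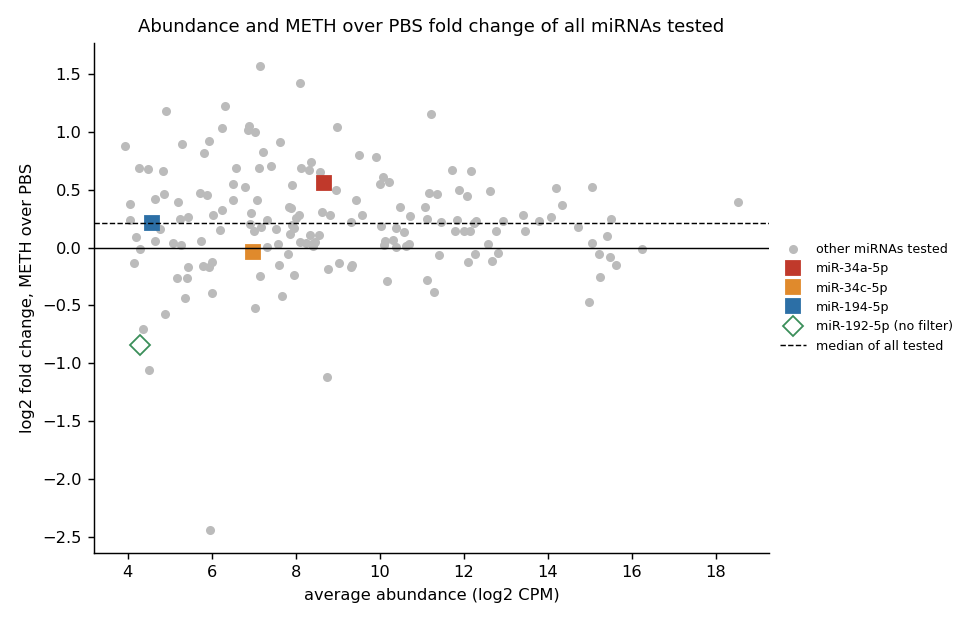
Log2 fold change (METH over PBS) against average abundance (log2 CPM) for the 166 miRNAs tested, with the 4 miRNAs in colour and miR-192-5p from the fit with no filter. miR-34a-5p (0.56), miR-34c-5p (−0.04) and miR-194-5p (0.21) lie within the cloud of the others.

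The spread between libraries was mostly larger than counting error. For miR-34a-5p the coefficient of variation within groups was 54.8%. Counting alone gives 1.38% in METH 4, the library with most reads of it, and 9.95% in METH 1, the library with fewest. For miR-34c-5p the within-group value was 54.7%, with counting errors of 3.30% to 35.4%. For miR-194-5p it was 60.9%, with counting errors of 6.82% to 50%, and for miR-192-5p it was 60.5%, with 7.16% to 70.7%. The median over the 166 miRNAs tested was 67.3%. miR-34c-5p ranged 17.5-fold and miR-192-5p 16.1-fold over the 8 libraries, against 5.41-fold for miR-34a-5p and 4.17-fold for miR-194-5p. On log2 CPM with the prior count, the range was 4.01 for miR-34c-5p and 3.55 for miR-192-5p, above the median of 2.70 over the miRNAs tested, and 2.43 for miR-34a-5p and 1.94 for miR-194-5p, below it.

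Fits were also made without the 2 deepest libraries and without the 3 shallowest, which were those that stood apart. Among the libraries numbered 1 to 3, edgeR gave log2 fold changes of 0.02 for miR-34a-5p, −0.36 for miR-34c-5p, and, with no filter, 0.26 for miR-194-5p and −0.86 for miR-192-5p. Between the deepest libraries, METH 4 had 2.32 times the PBS 4 level of miR-34a-5p (exact 95% interval 2.22 to 2.44) and 1.70 times that of miR-34c-5p (1.53 to 1.88). For miR-194-5p METH 4 had 1.09 times the PBS 4 level (0.892 to 1.32), and for miR-192-5p 0.581 times (0.451 to 0.745). These intervals cover counting error only and compare 2 libraries, not the conditions. Without METH 3, PBS 1 and PBS 3, the log2 fold changes were 0.42, −0.03 and −0.21 for miR-34a-5p, miR-34c-5p and miR-194-5p, and −1.36 for miR-192-5p (edgeR unadjusted p = 0.0555, adjusted p = 0.983).

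**Figure D4:**
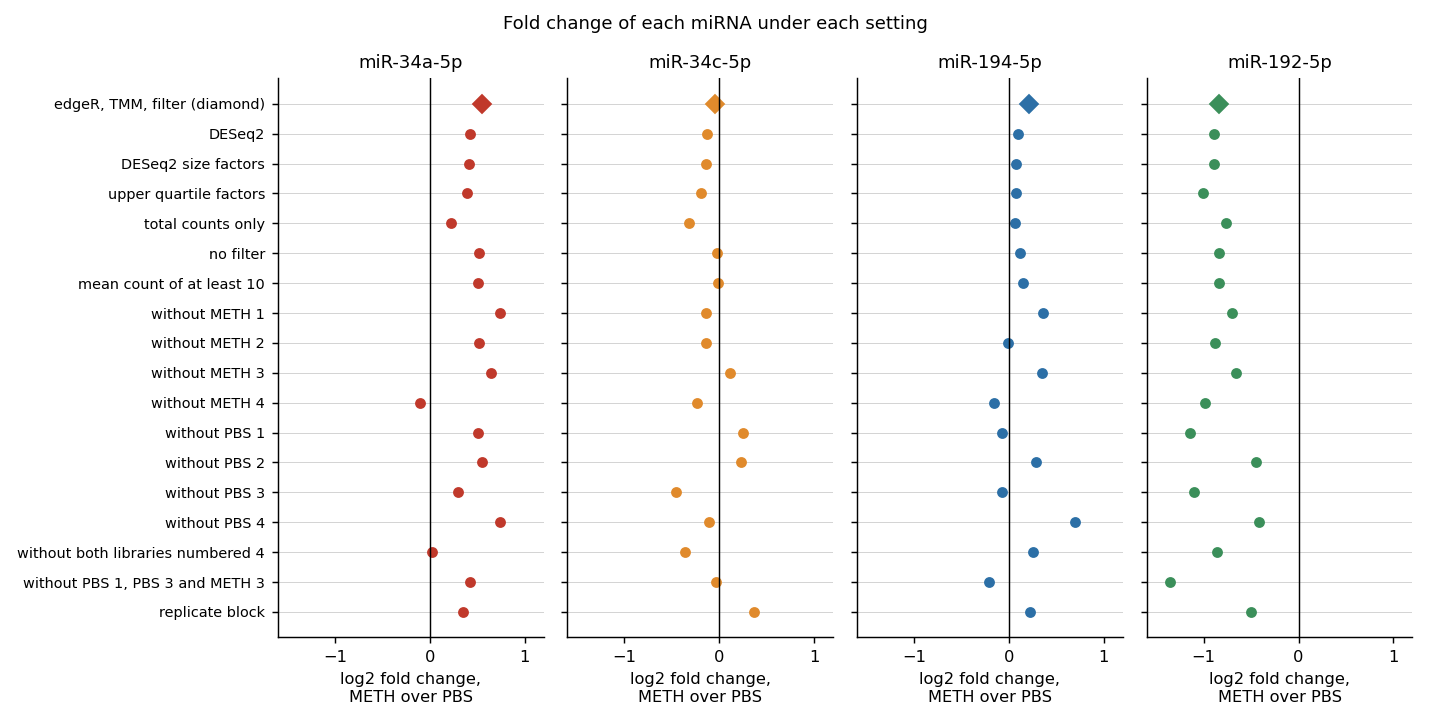
Log2 fold change (METH over PBS) of each miRNA in the fit as reported (diamond) and under 17 other settings. miR-192-5p stays below 0 in each, from −1.36 to −0.41, and for it the setting with no filter is the fit as reported. miR-34a-5p is below 0 only without METH 4 (−0.10), and miR-34c-5p and miR-194-5p fall on both sides of 0.

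Within a library, the ratio of miR-34a-5p to miR-34c-5p needs no scaling. It was 1.58, 3.53, 4.52 and 5.73 in METH 1 to 4, and 1.67, 1.78, 16.4 and 4.19 in PBS 1 to 4. METH 1, PBS 1 and PBS 2 were close to each other, and the counting interval of PBS 3 (8.07 to 38.7) lay above those of the other 7 libraries. The mean log2 ratio was 1.78 ± 0.81 in METH and 1.90 ± 1.498 in PBS (n = 4 each), a difference (METH minus PBS) of −0.11, with a two-sided p of 0.8286 by exact permutation, also after adjustment over 2 ratios. It was 0.57 without PBS 3, where miR-34c-5p had 8 reads, and 0.26 without METH 1. miR-34a-5p made up 61.2% to 94.2% of the reads of the pair, and the pair summed to 580 ± 395 normalised CPM in METH and 437 ± 162 in PBS.

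The ratio of miR-194-5p to miR-192-5p, from neighbouring genes, was 1.2, 2.11, 1.33 and 2.06 in METH 1 to 4. It was 3.50, 0.571, 1.00 and 1.10 in PBS 1 to 4. PBS 1 rested on 7 and 2 reads, and its interval (0.666 to 34.5) covered all other values but that of PBS 2. The deepest libraries gave the narrowest intervals, 1.61 to 2.66 in METH 4 and 0.904 to 1.35 in PBS 4. With 0.5 added to the counts, the mean log2 ratio was 0.67 ± 0.43 in METH and 0.24 ± 0.99 in PBS (n = 4 each). The difference (METH minus PBS) was 0.43, with an exact permutation p of 0.514 (adjusted 0.8286). On that scale 4 of 4 METH libraries lay above the PBS mean, but METH 1, at 6 and 5 reads, only just (0.241 against 0.236). The difference was 0.10 without PBS 2 and 0.88 without PBS 1 (exact permutation p = 0.0571, n = 4 METH and 3 PBS).

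**Figure D5:**
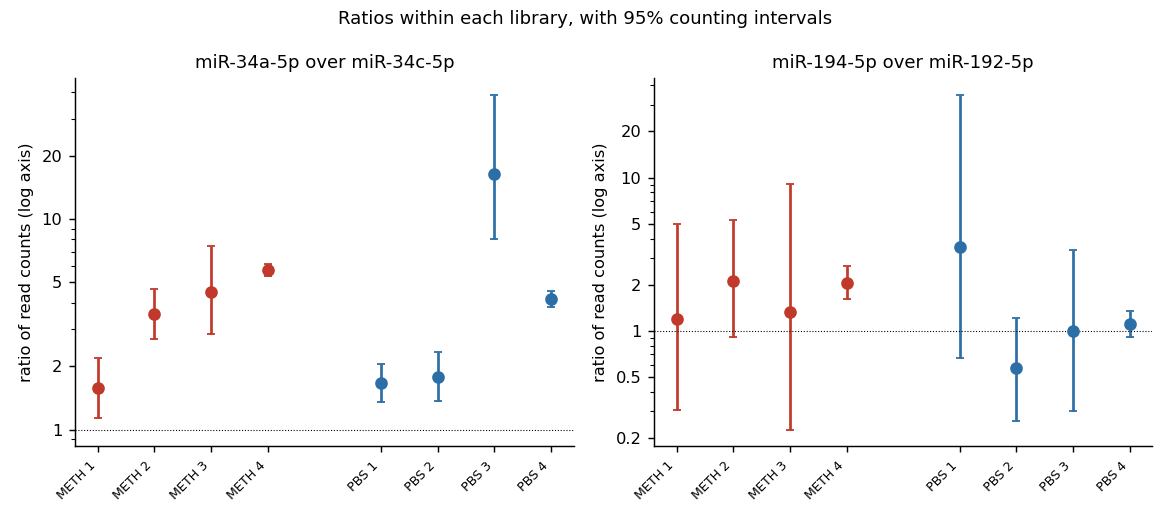
Ratio of read counts within each library (log axis), miR-34a-5p over miR-34c-5p on the left and miR-194-5p over miR-192-5p on the right, for METH 1 to 4 and PBS 1 to 4, with exact 95% binomial counting intervals. The miR-34 ratio of PBS 3 (16.4) is the highest of the 8, and METH and PBS values overlap in both panels.

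miR-192 and miR-194 are known from liver and epithelium, so the markers of those cell types are given beside them. The liver miRNA miR-122-5p, the only liver marker listed, had 37.7, 27.6, 2.63 and 1.88 normalised CPM in METH 1 to 4 and 6.45, 168, 40.6 and 156 in PBS 1 to 4. PBS 2 and PBS 4, its highest libraries, were also the highest for miR-192-5p, and its part in the miR-192-5p values was not tested. Of 5 epithelial markers, 4 matched a row and none passed the filter. Their summed level was 10.5, 4.36, 458 and 7.72 normalised CPM in METH 1 to 4 and 373, 35.5, 25.2 and 11.6 in PBS 1 to 4. For miR-141-3p, 2 reads were counted in PBS 4 and 0 in the other 7 libraries. METH 3 and PBS 1, the highest in epithelial markers, were among the lowest for miR-192-5p and miR-194-5p. The markers of ciliated epithelium, the miR-449 miRNAs, which share the miR-34 seed, matched 0 of 3 names.

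For each miRNA, the miRNAs of most similar pattern were those with the smallest root mean square difference of log2 normalised CPM over the 8 libraries, after each was centred on its own mean. For miR-34a-5p these were miR-15a-5p (0.37 log2 units), miR-30a-5p (0.37) and miR-29a-3p (0.40), where the median over 112 candidates was 1.13. For miR-34c-5p they were miR-135b-5p (0.80), miR-135a-5p (0.85) and miR-15a-5p (0.87), with a median of 1.48. For miR-194-5p they were miR-22-3p (0.17), miR-27b-3p (0.25) and miR-29a-3p (0.27), with a median of 1.19. For miR-192-5p, at few reads, they were let-7f-5p (0.59), let-7a-5p (0.60) and miR-22-3p (0.61), with a median of 1.44 over 113 candidates.

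Among the 4 miRNAs themselves, miR-34a-5p was closer to miR-194-5p (0.50, position 5 of 112) than to miR-34c-5p (1.03, position 47 of 112). Seen from miR-34c-5p, miR-34a-5p stood at position 11 of 112, ahead of miR-194-5p at position 26. miR-192-5p and miR-194-5p differed by 0.66, and miR-194-5p stood at position 5 of 113 for miR-192-5p. These differences are descriptions over 8 libraries that share depth and the division described above, in which the libraries that stood apart were also the shallowest. miR-29a-3p is also an astrocyte marker of the lists used. The summed astrocyte markers (3 of 3 matched) were at 1555, 2544, 1499 and 4681 normalised CPM in METH 1 to 4 and 1052, 1939, 827 and 3523 in PBS 1 to 4, highest in METH 4 and PBS 4 as miR-34a-5p and miR-194-5p were in their groups. Nearly all of the astrocyte sum was miR-29a-3p (21197 of 21847 reads in PBS 4). That miRNA was already picked for its likeness to miR-34a-5p and miR-194-5p, so this match is no separate observation. The part of astrocyte markers in those values was not tested.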

How the data were processed

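The authors deposited 1 table of raw read counts and TPM per miRNA and library, per the file headers, with 159 known and 225 predicted miRNAs. The deposited TPM equal each count's share of its library total (largest difference 4.51e-05), so only counts were tested. Aligner, miRNA reference and build: not given in the sources used here. Groups came from the sample titles.

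METH was compared with PBS over the whole table with edgeR 4.0.16 (R 4.3.3, TMM factors, filterByExpr with a minimum count of 10 and total of 15, robust quasi-likelihood F test, Benjamini-Hochberg adjustment at 0.05), which left 166 miRNAs with at least 99.8% of each library's counts. Standard errors were derived from the F statistic. The fit was tested on simulated counts, with limits to pass set only at a low dispersion (spread beyond counting error). The common dispersion estimated here was 0.615, far above it, so that test does not vouch for the fit at this spread. Ratios given per library are plain ratios of counts. Log2 ratios used counts with 0.5 added, so their means do not follow exactly from the plain ratios. They were tested by exact permutation over 70 splits (smallest p 0.0286) or by sign flips within libraries. Log2 CPM used a prior count of 2. Alternatives were DESeq2 1.42.0, other scalings and filters, left-out libraries and a replicate block. Named miRNAs were the 4 members, marker miRNAs and the 3 nearest in pattern to each member. The members and lists were chosen with earlier results of these data known, and 1 list of other miRNAs is not reported here. The protocols name no molecular identifiers, so count intervals cover counting error only.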

Additional observations from a re-analysis of the deposited data

How the results depend on the processing

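None of the 4 miRNAs or of all miRNAs tested was called under any of 17 alternative fits. miR-192-5p was lower in METH in each of these fits and on log2(CPM + 1), though it never passed the threshold. For miR-192-5p the fit with no filter is the reported fit itself, not an alternative. The fits also share libraries, so their common sign is not repeated evidence. Leaving out 1 library at a time, the log2 fold change of miR-34a-5p ran from −0.10 to 0.74. The ranges were −0.45 to 0.25 for miR-34c-5p and −0.16 to 0.69 for miR-194-5p. TMM factors ran from 0.650 in PBS 2 to 1.84 in PBS 3. The log2 fold change of miR-34a-5p was 0.23 with total counts only and 0.052 on log2(CPM + 1) without TMM. That of miR-34c-5p was 0.37 with the replicate block and 0.17 on log2(CPM + 1) without TMM, and that of miR-194-5p was −0.050 on that scale and −0.21 without METH 3, PBS 1 and PBS 3. The difference in the miR-34a-5p to miR-34c-5p log2 ratio ran from −0.50 to 0.57 with 1 library left out and was 0.21 without those 3 libraries. The cause of these changes was not tested. Without those 3, the levels kept their order (1.58 and 2.37 log2 units for the first and second pair), but 5 libraries allow no exact p below 0.0625. The mean log2 ratio of miR-194-5p to miR-192-5p over the libraries ran from 0.29 to 0.63 with 1 library left out, with miR-194-5p higher on average each time.

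The deviations of same-numbered libraries correlated at −0.25, 0.54, 0.77 and 0.89 for numbers 1 to 4. METH 1 and PBS 1 each correlated best with a library of another number, and since not every pair was positive the numbers were not taken to pair the samples, although the other 3 pairs were. The block changed no call. With total counts only, the median of the tested miRNAs shifted by −0.36. Relative to that median, miR-34a-5p lay between 0.34 and 0.37 and miR-34c-5p between −0.26 and −0.17 over the 4 edgeR scalings. miR-194-5p lay between −0.0026 and 0.20. miR-192-5p was fitted with no filter, so its distance from the median of the filtered fit mixes 2 fits. That distance ran from −1.06 with TMM to −0.62 with total counts only. Against the median of the unfiltered TMM fit it was −0.86. The libraries numbered 1 to 3 held 2 to 21 reads of miR-192-5p and 4 to 19 of miR-194-5p, so both counting error and the spread between libraries limit these values.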
